A study of Homo sapiens with 6 samples.

Results

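Ribosome biogenesis factors and the RNA polymerase I machinery were followed in MDA-MB-453, an established human breast cancer cell line, as 40 genes chosen by name from nucleolar processing factors and RNA polymerase I genes. The names were chosen with earlier results of these data known. All 40 names were among the 33451 genes of the deposited count table, and all 40 passed the filter on low counts. Control (CG) cells were cultured for 5 days with 0.1% alcohol as solvent, and experiment (EG) cells for 5 days with 100 nM 25(OH)D, the circulating form of vitamin D. Both groups grew in DMEM with 10% fetal bovine serum, and 3 mRNA libraries were made from each, which the study describes as biological replicates of 1 cell line. The comparison asked how 25(OH)D changed the transcriptome of these cells.

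Ribosomes are made in the nucleolus, where RNA polymerase I transcribes a long precursor of ribosomal RNA. Small nucleolar ribonucleoproteins modify that precursor, large assemblies of processing factors cut and fold it around ribosomal proteins, and the small and large subunits leave the nucleus separately. Growing cells spend much of their energy on this pathway, and many of its genes are textbook targets of the transcription factor MYC. The mRNA libraries report the messages of the proteins, whereas the precursor itself, the small nucleolar RNAs and the proteins were not measured.

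The libraries held between 33268860 and 40928176 counts, and control and 25(OH)D libraries separated along the first principal component, which held 64.8% of the variance. Mitochondrial genes took 7.85% to 7.99% of the counts in control and 8.89% to 9.24% in 25(OH)D, and with these genes left out of the fit 25 of the members were lower. Of the luminal markers of this line, KRT8 lay between 1636 and 1869 CPM and ERBB2 between 348 and 416 CPM over the 6 libraries (the count of a gene per library, brought to the same total with TMM factors). ESR1 and PGR did not exceed 0.208 CPM, and the leukocyte and endothelial lists summed to at most 0.489 CPM in any library. The fibroblast list summed to between 36.5 and 38.95 CPM in control and between 31.97 and 34.6 CPM in 25(OH)D, nearly all of it COL1A1, and its part in the results was not tested. In bulk libraries, fewer cells of a kind and less RNA per cell cannot be told apart, and all values are relative to the other mRNAs of the library.

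Of the 40 genes, 26 were lower and 0 were higher in 25(OH)D by the quasi-likelihood test of edgeR at an adjusted p under 0.05, where 16.5% of all 18183 genes tested were lower, 17.3% were higher and 33.8% were called in either direction. No member was higher at an unadjusted p under 0.05 either, and DESeq2 and limma also called 0 higher. The median log2 fold change of the members was -0.22 (quartiles -0.32 to -0.061), beside -0.011 for all genes tested. The falls were small. Called members lost between 9.18% and 31.8% of their mean CPM, and 0 of the 40 passed the limits drawn in the study, an absolute log2 fold change over 1 with an unadjusted p under 0.05, which 6.65% of all genes passed. Every 25(OH)D library lay below every control library for 27 members, as for 22.9% of all genes, and every 25(OH)D library lay above every control library for 1 member, NOP2, as for 22.8% of all genes.

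**Figure D1:**
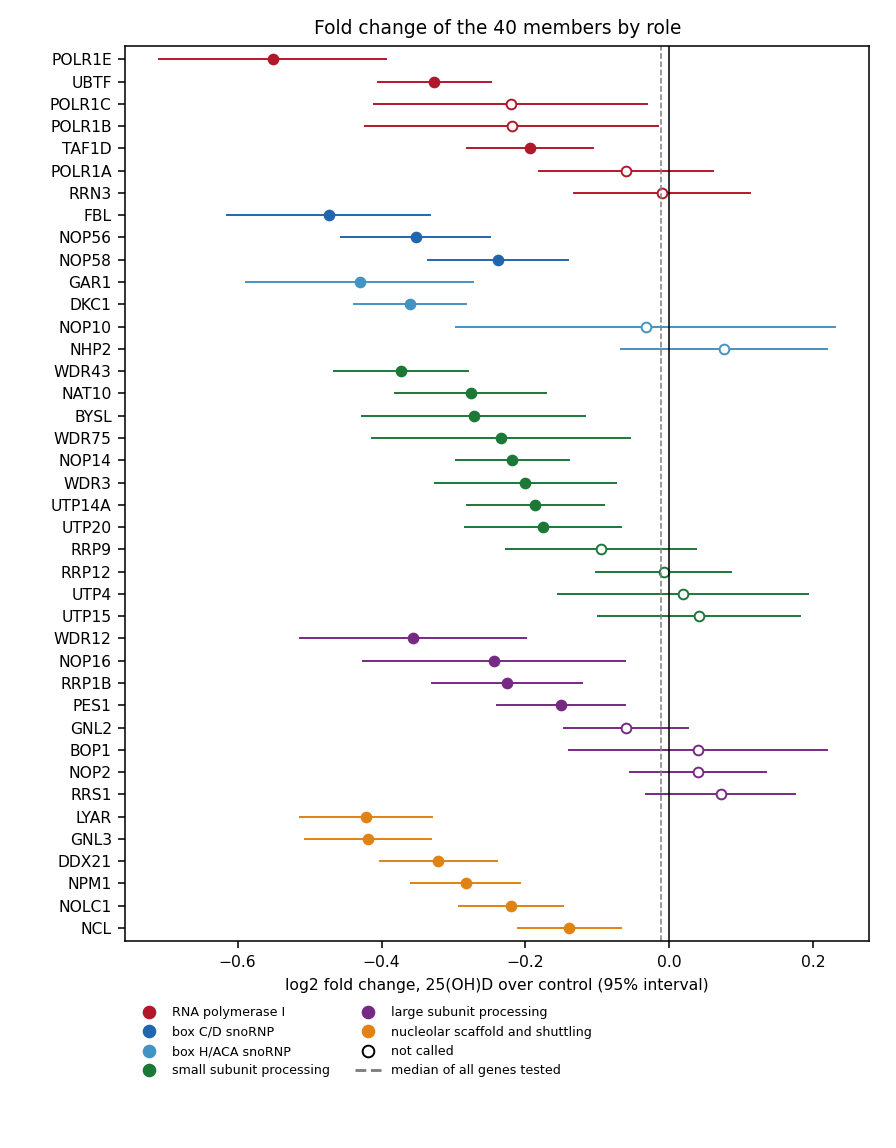
Log2 fold change of 25(OH)D over control for the 40 members, grouped by role, with 95% intervals as bars, filled points for an adjusted p under 0.05 and open points for members not called. The 26 filled points all lie left of 0, from POLR1E at -0.55 to NCL at -0.14, and the dashed line marks the median of all genes tested at -0.011.

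RNA polymerase I and its initiation factors were represented by 7 genes, of which 3 fell and 4 were not called. POLR1E, which encodes a peripheral subunit that docks on the core enzyme (chromosome 9, 37485935 to 37503697, plus strand of GRCh38), fell furthest of all 40 members. It measured 21.9, 23.1 and 24.6 CPM in the control libraries and 16.2, 15.6 and 15.7 CPM in the 25(OH)D libraries. The groups were far apart relative to their spread, with means of 23.2 ± 1.32 and 15.8 ± 0.373 CPM (mean ± SD, n = 3 each). Its log2 fold change was -0.55 (standard error, SE, 0.0732), and the Benjamini-Hochberg adjusted p from edgeR was 3.96e-05. UBTF (chromosome 17, 44205033 to 44221626, minus strand) encodes the upstream binding factor, which keeps ribosomal DNA open and recruits the polymerase. It measured 271, 277 and 281 CPM in control and 224, 216 and 222 CPM in 25(OH)D. The libraries of one group again did not reach those of the other, and the log2 fold change was -0.33 (SE 0.0367, adjusted p = 7.69e-06). TAF1D, a subunit of the promoter selectivity factor SL1, fell from between 147 and 157 CPM to between 133 and 135 CPM, with a log2 fold change of -0.19 (adjusted p = 0.00192).

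The catalytic core of the enzyme was not called. POLR1A, the largest subunit, measured 66.8, 66.5 and 66.2 CPM in control and 58.9, 64.5 and 68.0 CPM in 25(OH)D. The treated libraries spread around the control values, and the 95% interval of its log2 fold change ran from -0.18 to 0.06. POLR1B, the second-largest subunit, had a log2 fold change of -0.22 and an adjusted p of 0.0933, and its groups overlapped because control replicate 3, at 20.2 CPM, lay below the other control libraries. Without that library its log2 fold change was -0.32 with an adjusted p of 0.0105, the lowest of 0.0105 to 0.352 over the 15 alternative settings. POLR1C, a subunit shared with RNA polymerase III, had a log2 fold change of -0.22 with groups that did not overlap and an adjusted p of 0.0703, and it passed with upper-quartile factors (adjusted p = 0.0326) and with library sizes alone (0.0355). Over the 15 settings its adjusted p ran from 0.0326 to 0.297, and it shares 13.7% of its exon bases with another gene. RRN3, the initiation factor that couples growth signals to the polymerase, measured 78.1, 70.7 and 73.6 CPM in control and 77.5, 74.6 and 68.7 CPM in 25(OH)D. Its 95% interval, -0.13 to 0.11, excludes a fall as large as those of POLR1E or UBTF, although 18.2% of the 100-base stretches of its transcripts also occur in other genes, so its reads may have been divided among copies.

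**Figure D2:**
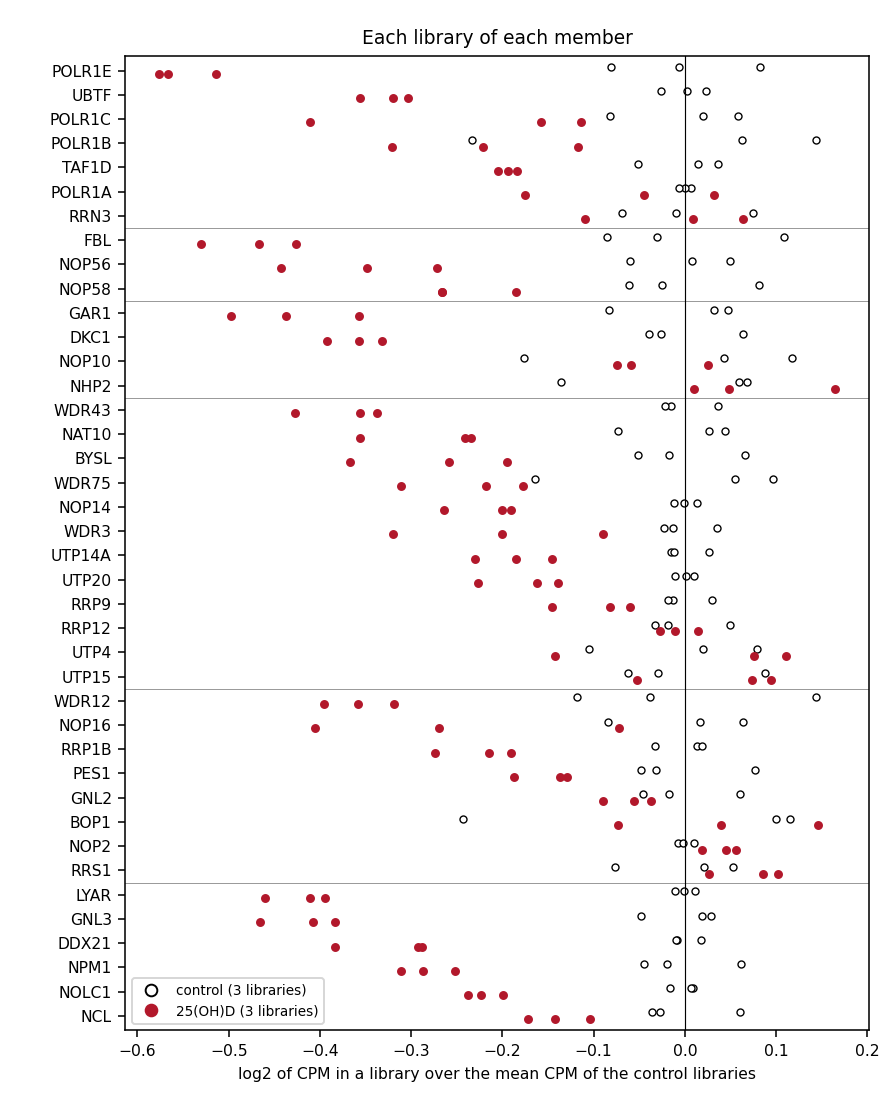
Each library of each member as log2 of its CPM over the mean CPM of the 3 control libraries, with control libraries as open points and 25(OH)D libraries as red points, in the order of roles used for the fold changes. The red points lie left of all open points in 27 rows and right of all open points in 1 row, NOP2. The groups overlap in the other 12 rows, those for NOP10, NHP2, UTP4, BOP1 and RRN3 among them.

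The 3 core proteins of box C/D small nucleolar ribonucleoproteins, which guide 2-prime-O-methylation of ribosomal RNA, all fell. FBL, which encodes the methyltransferase fibrillarin (chromosome 19, 39834458 to 39846414, minus strand), measured 40.9, 39.3 and 45.0 CPM in control and 28.9, 30.2 and 31.1 CPM in 25(OH)D. Its lowest control library exceeded its highest 25(OH)D library by more than either group spread. The log2 fold change was -0.47 (SE 0.0658, adjusted p = 6.00e-05 from the same test). The scaffold proteins NOP56 and NOP58 fell less, with log2 fold changes of -0.35 (SE 0.0479, adjusted p = 4.92e-05) and -0.24 (SE 0.0451, adjusted p = 8.45e-04). NOP56 went from 214, 224 and 230 CPM to 184, 164 and 175 CPM, and NOP58 from 215, 220.5 and 237 CPM to 197, 187 and 186 CPM. Neither scaffold gene had a treated library within the range of its controls.

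Box H/ACA ribonucleoproteins guide pseudouridylation and also form part of telomerase, and their 4 core proteins divided. DKC1, which encodes the pseudouridine synthase dyskerin (chromosome X, 154762742 to 154777689, plus strand), was the most abundant of them per exon length, at 252 RPKM in control (reads per kilobase of annotated exon, scaled to the library total). It held 1026, 1017 and 1092 CPM in control and 816, 796 and 830 CPM in 25(OH)D. The treated libraries all lay well below the lowest control library, with a log2 fold change of -0.36 (SE 0.0364, adjusted p = 2.61e-06). GAR1, the protein that binds dyskerin from outside, fell from 24.5, 22.4 and 24.2 CPM to 18.5, 16.8 and 17.5 CPM, with a log2 fold change of -0.43 (adjusted p = 3.59e-04). NHP2, an RNA-binding core protein, measured 43.0, 49.2 and 49.5 CPM in control and 47.5, 48.8 and 52.9 CPM in 25(OH)D. The groups overlapped, and the 95% interval of its log2 fold change was -0.07 to 0.22. NOP10, the smallest core protein, had the fewest counts of all members, at 6.11 ± 0.632 and 5.96 ± 0.223 CPM (mean ± SD, n = 3 each), and its log2 fold change of -0.033 had an interval of -0.30 to 0.23. NHP2 shares 27.4% of its exon bases with RMND5B on the opposite strand, and whether the reads were counted by strand is not given in the sources used here.

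The ratio between partners within a library does not depend on how libraries are scaled, and 12 such ratios were formed within the box C/D proteins, the box H/ACA proteins and the PES1, BOP1 and WDR12 complex. The CPM of DKC1 over that of NHP2 was 23.9, 20.7 and 22.1 in control and 17.2, 16.3 and 15.7 in 25(OH)D, while DKC1 over GAR1 was 41.9, 45.5 and 45.1 in control and 44.1, 47.5 and 47.4 in 25(OH)D. The first ratio separated the groups and the second did not. In all, 8 of the 12 ratios did not overlap between groups. Of single genes tested, 22.9% lay wholly lower and 22.8% wholly higher in 25(OH)D, and the share among other gene pairs was not computed. The 12 ratios reuse the same genes, so they are not separate results. Each of the 8 had the smallest p that a two-sided exact permutation test of 3 libraries against 3 can give, 0.1. It became 0.15 after adjustment over the 12 ratios. That test cannot bring a single ratio past the threshold with 3 libraries a group.

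Small subunit processing was represented by 12 genes, of which 8 fell and 4 were not called. WDR43, a member of the complex that binds the precursor while it is being transcribed (chromosome 2, 28894643 to 28948222, plus strand), measured 133, 132 and 138 CPM in control and 105, 99.8 and 106 CPM in 25(OH)D. The gap between groups was several times the spread within them, and the log2 fold change was -0.37 (SE 0.0433, adjusted p = 1.06e-05). NAT10, the enzyme that acetylates cytidines of the small subunit RNA, fell from 133 ± 5.74 to 110 ± 5.12 CPM (mean ± SD of 3 libraries each), and its log2 fold change was -0.28 (adjusted p = 4.98e-04). NOP14 and UTP14A, further components of the small subunit processome, had log2 fold changes of -0.22 (adjusted p = 3.03e-04) and -0.19 (adjusted p = 0.00443). NOP14 shares 17.1% of its exon bases with the antisense gene NOP14-AS1, and UTP14A shares 2.15% of its 100-base stretches with its retrocopy UTP14C and 1 other gene.

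BYSL, WDR75, WDR3 and UTP20 had log2 fold changes of -0.27, -0.23, -0.20 and -0.18, with adjusted p-values of 0.00925, 0.0437, 0.0165 and 0.0148. These calls depended on single libraries, and those of WDR3 and WDR75 also on the method. With all 6 libraries, WDR3 lost its call in limma on log2(RPKM + 0.1) (adjusted p = 0.0563). WDR75 lost its call with DESeq2 (adjusted p = 0.0514), in both limma fits (0.05001 and 0.0689) and without mitochondrial genes (0.0561). The call of BYSL was lost without 25(OH)D replicate 2 (adjusted p = 0.0639, range over the 15 settings 0.00308 to 0.0639), and that of WDR3 without control replicate 3 or without 25(OH)D replicate 2 or 3 (0.0667, 0.0667 and 0.0864, range 0.00482 to 0.0864). UTP20 was lost without control replicate 2 or 3 or without 25(OH)D replicate 2 or 3, at adjusted p-values between 0.0518 and 0.0671 (range 0.00384 to 0.0671). WDR75 was called in only 6 of the 15 settings, and leaving out control replicate 2 or 3 or any 25(OH)D replicate ended its call at adjusted p-values between 0.0552 and 0.191 (range 0.0115 to 0.191). WDR3 shares 17.1% of its exon bases with SPAG17. Each of these 4 genes kept a negative log2 fold change throughout.

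The remaining genes of this role were RRP9, a protein specific to the U3 small nucleolar RNA, RRP12, which takes part in export of the subunits, and the processome components UTP4 and UTP15. RRP9 had 28.8, 28.7 and 29.7 CPM in control and 26.3, 27.9 and 27.5 CPM in 25(OH)D. The groups did not overlap, but the log2 fold change of -0.095 did not pass the test (adjusted p = 0.267, 95% interval -0.23 to 0.04). RRP12 was among the most closely matched members, at 98.9, 98.0 and 104 CPM in control and 101, 98.3 and 99.5 CPM in 25(OH)D, with an interval of -0.10 to 0.09. UTP15 measured 34.2, 35.0 and 38.0 CPM in control and 37.6, 38.2 and 34.5 CPM in 25(OH)D. It had a log2 fold change of 0.041 (interval -0.10 to 0.18) and UTP4 of 0.019 (interval -0.15 to 0.19), and with upper-quartile factors, library sizes alone or limma on RPKM these values were below 0 for both genes.

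Large subunit processing held 8 genes, of which 4 fell and 4 were not called, and its median log2 fold change of -0.11 was the nearest to 0 of the 6 roles. PES1, BOP1 and WDR12 encode the PeBoW complex, which is needed to mature the 28S and 5.8S RNAs. WDR12 (chromosome 2, 202874782 to 203014798, minus strand) fell from 31.8, 33.6 and 38.1 CPM to 27.7, 26.9 and 26.2 CPM, with a log2 fold change of -0.36 (SE 0.0730, adjusted p = 0.00158). PES1 fell by less, from 327, 323 and 352 CPM to 304, 293 and 306 CPM, with a log2 fold change of -0.15 (adjusted p = 0.0111). Without control replicate 3 or without 25(OH)D replicate 2 the adjusted p of PES1 was 0.0657 or 0.0793, in a range of 0.00130 to 0.0793. BOP1 measured 84.3, 85.1 and 66.4 CPM in control and 74.7, 80.8 and 87.0 CPM in 25(OH)D, so control replicate 3 again lay apart and the interval was wide, from -0.14 to 0.22. The 3 genes of this complex therefore had fitted log2 fold changes of -0.36, -0.15 and 0.040, of which that of BOP1 moved to -0.061 without control replicate 3 and also crossed 0 with upper-quartile factors, library sizes alone or without 25(OH)D replicate 3.

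Among the other large subunit factors, RRP1B, a nucleolar protein linked to protein phosphatase 1, fell from 72.5 ± 1.41 to 62.0 ± 1.83 CPM (mean ± SD of 3 libraries each), and its log2 fold change was -0.23 (adjusted p = 0.00219). NOP16 had a log2 fold change of -0.24 and an adjusted p of 0.0389, but it was the only called member whose groups overlapped, and it shares 12.0% of its exon bases with ARL10. It lost the call without control replicate 1 or 2 or without 25(OH)D replicate 2 or 3 (adjusted p between 0.0947 and 0.210) and in both limma fits (0.0538 and 0.0790, range over the 15 settings 0.00854 to 0.210). NOP2, the methyltransferase that modifies a cytosine of the 28S RNA, measured 77.9, 78.2 and 78.9 CPM in control and 81.4, 80.8 and 79.4 CPM in 25(OH)D. All treated libraries lay above all control libraries, yet the log2 fold change was 0.040 (adjusted p = 0.534, interval -0.05 to 0.13) and it moved just below 0 with upper-quartile factors, library sizes alone or limma on RPKM. Of its 100-base stretches, 44.3% also occur in AC006064.6. RRS1, which brings the 5S ribonucleoprotein into the large subunit, measured 97.8, 89.4 and 95.7 CPM in control and 100.1, 96.05 and 101 CPM in 25(OH)D, with a log2 fold change of 0.07 (adjusted p = 0.284, interval -0.03 to 0.17) and shares 194 exon bases with ADHFE1 on the same strand. GNL2, a GTPase of the large subunit, had a log2 fold change of -0.061 and an interval of -0.15 to 0.03, and passed the test with library sizes alone (adjusted p = 0.0487, range 0.0487 to 0.741).

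All 6 nucleolar scaffold and shuttling proteins fell. GNL3, which encodes nucleostemin, a GTPase abundant in stem and tumour cells (chromosome 3, 52681156 to 52694492, plus strand), measured 208, 219.5 and 218 CPM in control and 156, 162 and 165 CPM in 25(OH)D. Its groups were clearly separated, and its log2 fold change of -0.42 had the smallest p of all members (SE 0.0407, adjusted p = 1.77e-06). LYAR, a nucleolar zinc finger protein of growing cells, measured 109, 111 and 110 CPM in control and 80.1, 82.9 and 83.9 CPM in 25(OH)D, a log2 fold change of -0.42 (SE 0.0429, adjusted p = 2.83e-06). The control libraries of LYAR had an SD of 0.856 CPM (n = 3), so that its fall was large against the spread. DDX21, an RNA helicase that links RNA polymerase I and II transcription, fell from 358 ± 3.90 to 287 ± 10.6 CPM (mean ± SD of 3 libraries each), and its log2 fold change was -0.32 (adjusted p = 1.32e-05).

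NPM1 and NCL, which encode the abundant nucleolar proteins nucleophosmin and nucleolin, were the most abundant members per exon length, at 657 RPKM for NCL and 478 RPKM for NPM1 in control. NPM1 fell from 1749, 1780.5 and 1883 CPM to 1516, 1454 and 1479 CPM, with a log2 fold change of -0.28 (SE 0.0352, adjusted p = 2.08e-05). NCL fell from 4402, 4376 and 4676 CPM to 4064, 3982 and 4174 CPM, with a log2 fold change of -0.14 (SE 0.0335, adjusted p = 0.00497), the smallest fall that was called. NOLC1, a phosphoprotein that shuttles small nucleolar ribonucleoproteins, lay between them with a log2 fold change of -0.22 (adjusted p = 1.47e-04). NPM1 shares 8.78% of its 100-base stretches with 7 other genes, the largest part with NPM1P27. Its counts are therefore uncertain, by an amount that was not measured.

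The members differed widely in level. Per exon length, the control means ran from 3.81 RPKM for POLR1B and 3.84 RPKM for WDR12 to 252 RPKM for DKC1, 478 RPKM for NPM1 and 657 RPKM for NCL. RPKM uses the length of all annotated exons together, which reaches 13519 bases for POLR1A, and so may understate genes with long or retained exons. Of the 18 members with a control mean of at least 100 CPM, 16 were called lower, and of the 22 below that level, 10 were. Of all genes tested, 16.5% were called lower, and this share was not computed by level. The median standard error of the log2 fold change was 0.0408 in the first set of members and 0.0695 in the second, so that a fall of the size seen for NCL was harder to detect among the scarcer genes. The second set also held all 6 members with a log2 fold change above 0, from 0.019 for UTP4 to 0.076 for NHP2. No count of a member in any library was below 191, which was that of NOP10.

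**Figure D3:**
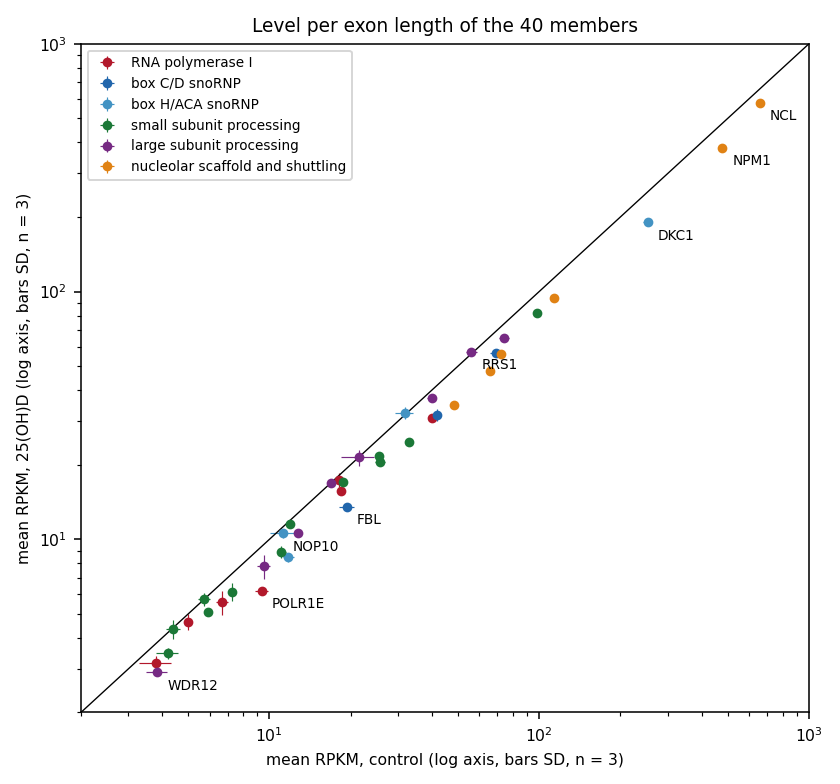
Mean RPKM of the 40 members in control (x axis) and in 25(OH)D (y axis), both on log axes, with SD bars from 3 libraries and colours for the roles. Most points lie just under the line of equality at every level, from POLR1B at 3.81 RPKM in control to NCL at 657 RPKM, and POLR1E, FBL and GAR1 lie farthest below it.

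Summed over its members, each role took a smaller share of the library in 25(OH)D. The 7 RNA polymerase I genes summed to 636 ± 3.48 CPM in control and 544 ± 3.73 CPM in 25(OH)D (mean ± SD, n = 3 each), which was 14.4% lower. The box H/ACA proteins were 20.9% lower and the box C/D proteins 19.3% lower, while the large subunit factors were 5.87% lower. All 40 genes together held 11688 ± 340 CPM in control and 10124 ± 184 CPM in 25(OH)D, of which NCL and NPM1 made up 54.3%. These sums are descriptions and follow the most abundant member of each role.

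A further 142 genes of ribosome biogenesis gave the setting of the members. They were listed from general knowledge of the pathway, but with earlier results of these data known. Of these, 58 (40.8%) were lower and 7 (4.93%) were higher at an adjusted p under 0.05, with a median log2 fold change of -0.13. Among all genes tested, 16.5% were lower and 17.3% were higher. The counts by role that follow rest on few genes in some roles, and were not tested against these shares. The nuclear exosome and trimming factors held the largest share of lower genes, 9 of 15, led by EXOSC8 with a log2 fold change of -0.53 (adjusted p = 6.06e-05). The same role held 2 of the 7 higher genes, MPHOSPH6 with a log2 fold change of 0.47 (adjusted p = 1.01e-06) and XRN2 with 0.15. EXOSC8, MPHOSPH6 and XRN2 were chosen for mention after their values were seen. The large subunit factors had 26 of 56 lower, the small subunit factors 16 of 47, the ribonucleoprotein assembly factors 3 of 9 and the remaining RNA polymerase I genes 4 of 15. RSL24D1, which holds a place on the immature large subunit, was the gene of this list that fell with the smallest p. It went from 197 ± 6.08 to 130 ± 8.21 CPM (mean ± SD of 3 libraries each), and its log2 fold change was -0.61 (SE 0.0491, adjusted p = 2.88e-07). Of the other subunits of the polymerase itself, chosen for mention after their values were seen, POLR1F, POLR1G and POLR1H (listed in the table as TWISTNB, CD3EAP and ZNRD1) did not pass the test (adjusted p = 0.0610, 0.532 and 0.320), nor did POLR1D (0.572). POLR2F, a subunit shared by the 3 nuclear polymerases, fell with a log2 fold change of -0.17 (adjusted p = 0.0209), and POLR2L, also shared, rose with 0.25 (adjusted p = 0.00409), while the shared subunits POLR2E, POLR2H and POLR2K were not called. These shared subunits were likewise named after their values were seen. POLR1G, the partner of POLR1E on the enzyme, measured 137, 142 and 152 CPM in control and 146, 133 and 138 CPM in 25(OH)D. Its 95% interval of -0.15 to 0.06 lies outside that of POLR1E, -0.71 to -0.39, though the difference itself was not tested.

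EFL1 stood apart from the whole pathway. This gene (chromosome 15, 82130230 to 82262763, minus strand) encodes a GTPase that, with SBDS, releases EIF6 from the large subunit in the cytoplasm. It measured 23.6, 25.9 and 24.6 CPM in control and 133, 127 and 119 CPM in 25(OH)D. The lowest treated library far exceeded the highest control library, and the log2 fold change was 2.35 (SE 0.0582, edgeR adjusted p = 6.56e-13). EFL1 was the 1 gene of the 142 that passed the limits drawn in the study. Its exons share no bases with another gene of the table. NMD3, the adaptor that exports the large subunit and is recycled in the cytoplasm, rose as well, from 124 ± 0.747 to 150 ± 3.17 CPM (mean ± SD of 3 libraries each), and its log2 fold change was 0.27 (adjusted p = 1.02e-04). RRP7A, a small subunit factor, rose from 126 ± 0.241 to 172 ± 3.96 CPM (mean ± SD of 3 libraries each, log2 fold change 0.45, adjusted p = 6.24e-07). The partners SBDS and EIF6 had log2 fold changes of 0.015 and 0.0033, with intervals of -0.07 to 0.10 and -0.18 to 0.19. NMD3, RRP7A, SBDS and EIF6 were chosen for mention after their values were seen.

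**Figure D4:**
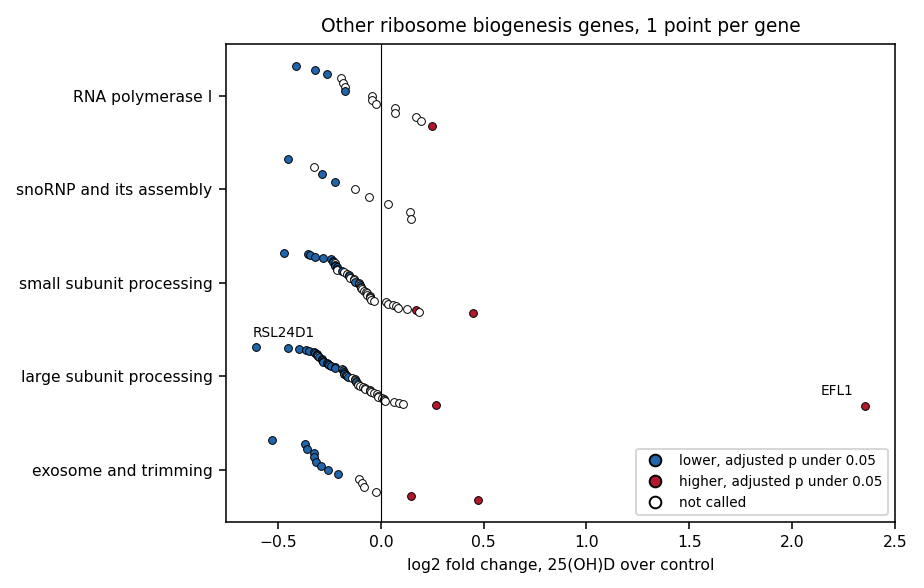
Log2 fold change of 25(OH)D over control for the 142 other ribosome biogenesis genes, 1 point per gene in rows by role, blue for lower and red for higher at an adjusted p under 0.05 and white for not called. EFL1 lies alone at 2.35 on the right, RSL24D1 lies farthest left at -0.61.

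Related gene groups were set beside the members without a test of the difference. Of 79 cytosolic ribosomal protein genes, 60 were lower and 1 higher, and their median log2 fold change was -0.23, close to that of the members. RPL5, a partner of the 5S RNA, had the smallest p and fell from 1081 ± 7.47 to 790 ± 38.8 CPM (mean ± SD of 3 libraries each), and its log2 fold change was -0.45 (adjusted p = 3.88e-07), and the 1 gene that rose was RPL10A at 0.13 (adjusted p = 0.0494). Of 78 mitochondrial ribosomal protein genes, 13 were lower and 5 higher, with a median of -0.059, so that the share of lower genes was 16.7%, near that of all genes tested. MRPL16 fell with a log2 fold change of -0.48 (adjusted p = 1.67e-04) and MRPS15 rose with 0.35 (adjusted p = 1.82e-04). Of the 7 subunits particular to RNA polymerase II, 0 were called by edgeR and 0 by DESeq2, while limma on RPKM called 1, POLR2C, which also was the 1 gene at an unadjusted p under 0.05 in edgeR, with a log2 fold change of -0.20 (adjusted p = 0.0738). POLR2I had the smallest p of those above 0 (log2 fold change 0.043, adjusted p = 0.738). Of 13 RNA polymerase III genes, 4 were lower and 1 higher, BDP1 with -0.19 (adjusted p = 0.00117) and POLR3K with 0.23 (adjusted p = 0.00880) having the smallest p in each direction.

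**Figure D5:**
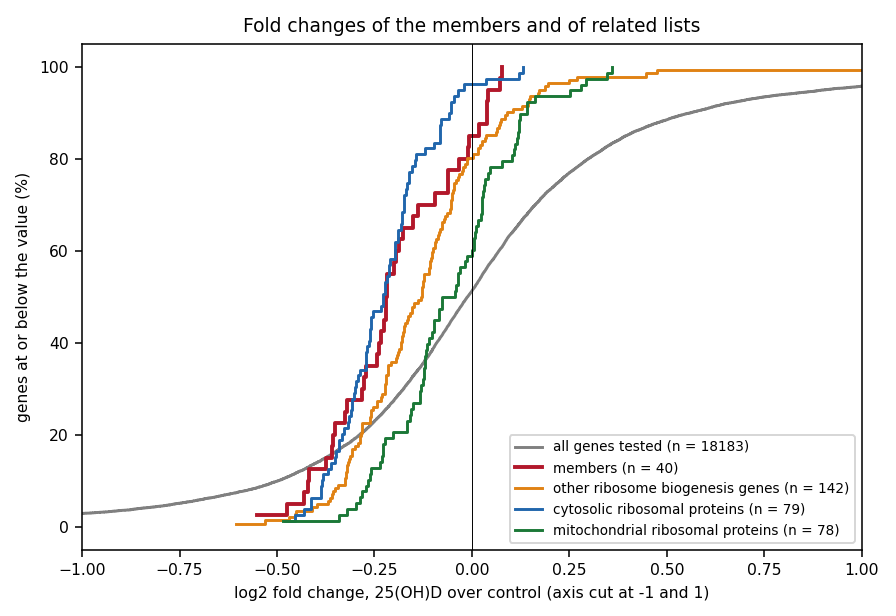
Cumulative share of genes (y axis, percent) at or below each log2 fold change of 25(OH)D over control (x axis, drawn from -1 to 1) for the 40 members, 142 other ribosome biogenesis genes, 79 cytosolic and 78 mitochondrial ribosomal protein genes and all 18183 genes tested. The curves of the members and of the cytosolic ribosomal proteins cross 50% at -0.22 and -0.23, that of the mitochondrial ribosomal proteins at -0.059 and that of all genes at -0.011.

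The promoters of the members, called or not, were searched for the E-box CACGTG, the site that MYC and MAX bind, in the 250 bases before the RefSeq start of each gene on GRCh38.p14. The motif reads the same on both strands. Promoters were found for 33 members, and none was found for POLR1E, NOP58, RRP12, BOP1, RRS1, RRP1B and NOLC1. The motif was present in 5 of the 33 (15.2%), in 6.49% of all 27305 promoters of that length and in 8.86% of the 10474 promoters of genes tested. Of the promoters found for cytosolic ribosomal proteins, 3 of 63 (4.76%) held the motif. Among members called lower it was present in 3 of 22 and among members not called in 2 of 11. The holders were NAT10, UTP14A and UTP20, which fell, and NOP10 and UTP4, which were not called. The windows of 40 bases that lie wholly before the gene's start in the deposited table are shown for comparison of the flanking bases, with the motif in capitals, for UTP14A (chrX:129905914-129905953, plus strand, motif starting 241 bases before the start), UTP20 (chr12:101280065-101280104, plus strand, 10 bases before) and NOP10 (chr15:34343284-34343323, minus strand, 170 bases before).
UTP14A: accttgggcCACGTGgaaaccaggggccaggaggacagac
UTP20: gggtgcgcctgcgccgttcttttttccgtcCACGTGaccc
NOP10: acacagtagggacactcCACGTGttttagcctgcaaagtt
For UTP20, the bases after this start were not found in a GENCODE 29 transcript. These matches are descriptions of the letters and not of binding, and most members that fell, FBL, DKC1, GNL3, LYAR and UBTF among them, held no such match in this window.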

How the data were processed

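The members and lists were chosen with earlier results of these data known. The authors deposited raw counts per gene, whole numbers without normalization, and RPKM values, which equalled the counts divided by exon length and library total (largest relative difference 2.23e-13). The submitters' processing notes name Trimmomatic 0.36, featureCounts, Subread 1.5.1 and edgeR 3.12.1, and GRCh38. The aligner, annotation release and strand setting are not given in the sources used here. Counts were fitted in R 4.3.3 with edgeR 4.0.16 (TMM factors between 0.980 and 1.02, low-count filter with a minimum count of 10, quasi-likelihood test without covariates), with Benjamini-Hochberg adjustment over 18183 genes. Biological coefficient of variation was 0.0788. The fit was tested on simulated data with the same dispersion for all genes, and falls as small as those of most called members were not simulated. Alternatives used DESeq2 1.42.0, limma 3.58.1, other factors, no filter, a replicate block, no mitochondrial genes, and omission of each library. Python 3.11.15 with scipy 1.17.1 and matplotlib 3.10.9 served for the rest. Exon overlaps came from positions in the table, 100-base stretches from GENCODE 29 transcripts and promoters from RefSeq (GRCh38.p14), and for 25 of 33 the bases after the start occurred in a GENCODE transcript. Full values are given for the member of smallest p per role and direction, and for the 5 largest falls and rises. No pair of replicates was a duplicate (chi-square per gene between 4.01 and 12.1). CDH5 was not listed in the table. One marker result is not reported here.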

Additional observations from a re-analysis of the deposited data

How the results depend on the processing

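Of 600 values of single members under 15 alternatives, 540 kept their direction and side of the threshold, 26 lost a call, 7 gained one and 27 changed sign. None of the 27 was of a called member, and 20 of the 26 called members were called under every alternative. The number of lower members was between 23 and 29 with all libraries and between 20 and 25 with 1 left out, and 0 were higher throughout. The median log2 fold change of the members was -0.26 with upper-quartile factors, library sizes alone or limma on log2(RPKM + 0.1), which do not remove a shift of -0.053, -0.055 and -0.052 in the median of all genes, and between -0.23 and -0.19 with 1 library left out. Values that crossed 0 with upper-quartile factors were -0.023 for UTP4, -5.83e-04 for UTP15, -0.0016 for BOP1 and -0.0017 for NOP2, and with library sizes alone -0.026, -0.0025, -0.0049 and -0.0041 in that order. With limma on log2(RPKM + 1) they were -0.022 for UTP4, -0.0032 for UTP15 and -0.0040 for NOP2, and with 0.1 added -0.026, -0.0037 and -0.0042. Without mitochondrial genes they were 0.0022 for RRN3 and 0.0046 for RRP12. With 1 library left out the log2 fold change ran from -0.043 to 0.048 for RRN3, -0.026 to 0.10 for UTP4, -0.11 to 0.037 for NOP10, -0.018 to 0.025 for RRP12 and -0.061 to 0.11 for BOP1. Samples with the same replicate number did not deviate together (correlations of -0.072, -0.012 and -0.046 over 18183 genes, and no sample correlated best with its own number), and the fit with the replicate block called 27 members lower, POLR1C being added (adjusted p = 0.0483). The causes of these changes were not tested. Counts of reads limit the scarcest members, and 19 of the 40 share exon bases with another gene, 15 of them on the opposite strand.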
